A study of Zea mays with 6 samples.

Results

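The genes described here are 6 genes grouped as carotenoid and abscisic acid precursor genes, out of 31470 genes listed for mature maize anthers. They were chosen by gene identifier from a fixed list that gives them the names y1 (phytoene synthase), vp5 (phytoene desaturase), lcyE (lycopene epsilon cyclase), crtRB1 (a carotenoid hydroxylase), ccd1 (a carotenoid cleavage dioxygenase) and vp14 (a 9-cis-epoxycarotenoid dioxygenase). RNA was sequenced from 3 libraries of a double mutant, with genotype ZmCOI2a-/-,ZmCOI2b-/-, and from 3 wild-type libraries. All 6 libraries came from anthers labelled mature, in the maize line B104. COI proteins perceive the plant hormone jasmonate, and both genes are placed by the series title in the opening of anthers and in male fertility. The sources used here do not give how the mutant alleles were made, the age of the plants in days or whether each library came from its own plants. The p-values therefore rest on the spread between these libraries alone, part of which may be technical.

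Carotenoids are made in plastids. Phytoene synthase joins geranylgeranyl diphosphate units into phytoene, and desaturases such as phytoene desaturase lead on towards lycopene. Lycopene is then cyclised, and lycopene epsilon cyclase directs it into the branch that ends in lutein, while the other branch leads through beta-carotene and its hydroxylated products to zeaxanthin, violaxanthin and neoxanthin. The 9-cis-epoxycarotenoid dioxygenases cut epoxycarotenoids of the beta-carotene branch to give xanthoxin, the precursor of abscisic acid. Carotenoid cleavage dioxygenase 1 cuts many carotenoids to volatile apocarotenoids. The maize loci are known from kernels: y1 from white endosperm, and vp5 and vp14 from seeds that sprout on the ear for lack of abscisic acid.

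The unit is FPKM (fragments per kilobase of gene, set relative to library depth), so levels can be set side by side between genes. Library depth, recovered from the values, ran from 16845656 to 17759978 reads. Between genotypes, each gene was tested on log2(FPKM + 1) with limma in a fit over the 18984 genes that reached 1 FPKM in 3 or more libraries, and genes with a Benjamini-Hochberg adjusted p under 0.05 were called. On this scale the fold change of weakly expressed genes comes out too small. In that fit 6.65% of the tested genes were called (1.90% rose and 4.75% fell), and the median log2 fold change of all tested genes was -0.20. Median-of-ratios scaling, which sets a typical gene equal between libraries, moved that median to 0.03, so the fold changes of the 5 tested genes are also given relative to the median. The targeted genes were not analysed here, which leaves the genotype labels without that check.

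The names were checked by chromosome, since the files pair no identifier with a name. For 5 of the 6 genes, the chromosome in the files (build B73 RefGen_v4) was that of the RefSeq gene of the same name in the newer assembly Zm-B73-REFERENCE-NAM-5.0. The exception was Zm00001d048469, listed as crtRB1. It lies on chromosome 9, and RefSeq's crtRB1 lies on another chromosome, as do all 3 RefSeq genes named as a carotenoid hydroxylase. The name crtRB1 is therefore not used for it below, and its identifier is given instead. A further limit concerns both lcyE and vp5 (RefSeq gives vp5 as pds1). In both cases RefSeq gives an older identifier of the gene to 1 further gene, whose position was not compared. The gene model of the files is longer than the RefSeq gene for both, but also for y1 and ccd1. With 1 value per gene, reads of a further gene inside the model could not be told apart from reads of the named enzyme. Whether either model holds such a gene was not tested.

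Within each library the genes kept much the same order. lcyE was highest in all 6 libraries, ccd1 came next and vp14 was last. The middle of the order differed by genotype: Zm00001d048469 was above vp5 in all 3 mutant libraries and below vp5 in all 3 wild-type libraries. In mutant anthers Zm00001d048469 (11.3 to 15.8 FPKM) and y1 (12.3 to 13.4 FPKM) overlapped, so their order there is not resolved. In wild-type anthers vp5 (7.38 to 11.7 FPKM) overlapped y1 (11.3 to 14.5 FPKM), although y1 was above vp5 in each library. The summed FPKM of the 6 genes was dominated by lcyE, which held 81.8 to 85.7% of it in mutant libraries and 80.7 to 83.4% in wild-type libraries.

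**Figure D1:**
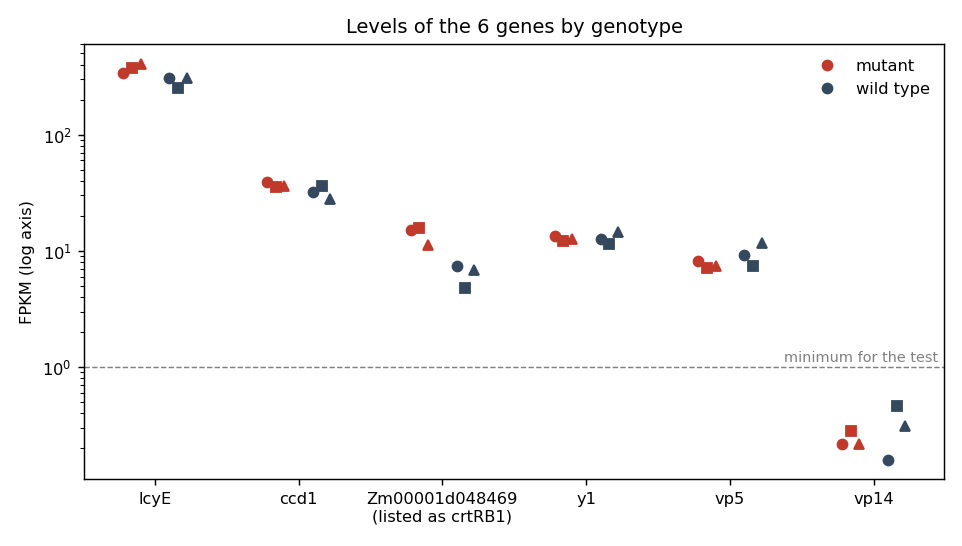
FPKM on a log axis for each of the 6 genes in 3 mutant (red, left) and 3 wild-type (dark, right) libraries, with symbols for replicates 1 (circle), 2 (square) and 3 (triangle). lcyE sits between 250 and 407 FPKM and vp14 below the dashed line at 1 FPKM, the minimum for the test.

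Of the 5 genes that passed the filter on low values, 1 was called changed, Zm00001d048469, and it rose. That number is too small to set against the 6.65% called among all tested genes. The median log2 fold change was 0.20 over the 5 tested genes and 0.099 over all 6, beside -0.20 over all tested genes. Every mutant library lay above every wild-type library for 2 of the 6 genes, lcyE and Zm00001d048469, a pattern seen in 7.27% of tested genes. With median-of-ratios scaling it held for 4 of the 6, y1 and ccd1 being added, against 16.7% of tested genes.

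**Figure D2:**
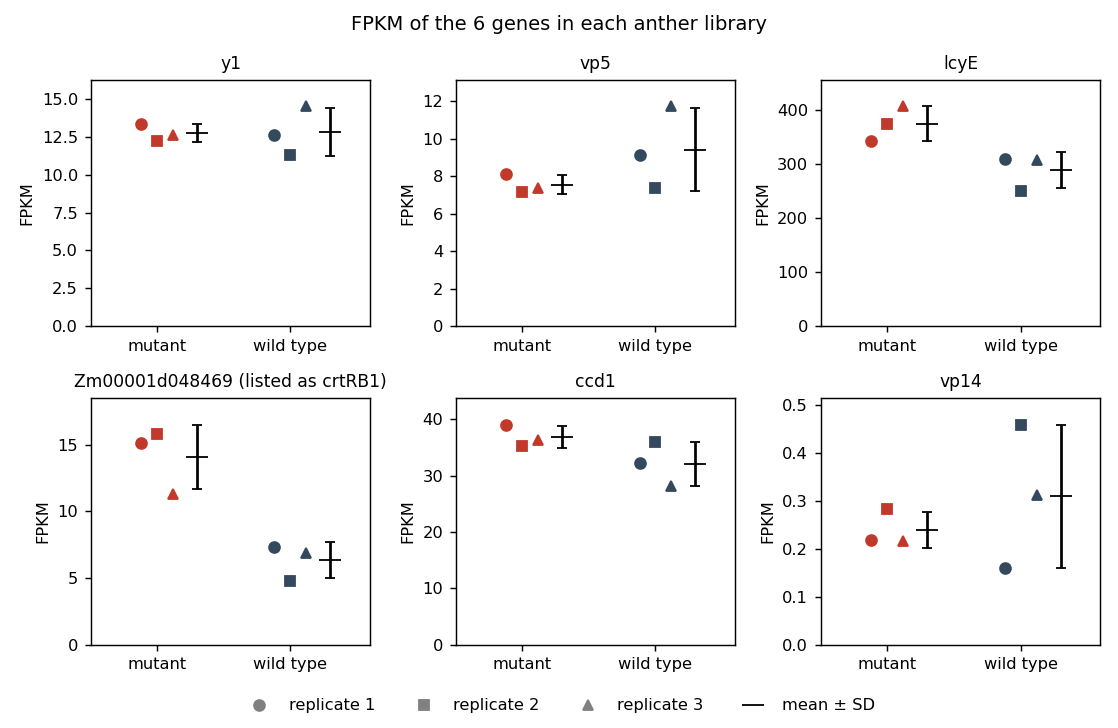
FPKM of each gene in each library, mutant left and wild type right, with the mean ± SD of the 3 libraries of a genotype as a black bar beside the points. The genotypes are separate for lcyE and Zm00001d048469 and overlap for the other 4 genes.

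The first 2 enzymes of the pathway did not pass the test. y1 (Zm00001d036345, chromosome 6, 85061295 to 85065182, plus strand), which encodes the phytoene synthase at the entry to the pathway, had 13.4, 12.3 and 12.6 FPKM in mutant replicates 1, 2 and 3. The wild-type replicates had 12.6, 11.3 and 14.5 FPKM, so the mutant libraries lay within the wild-type range. The means were 12.8 ± 0.58 FPKM in mutant and 12.8 ± 1.62 FPKM in wild-type anthers (SD, n = 3 each). The log2 fold change was -0.0013 (SE 0.16, 95% interval -0.37 to 0.36, limma adjusted p = 0.997), or 0.20 above the median of all tested genes. Its sign depended on the scaling: with median-of-ratios scaling it was 0.26 (limma adjusted p = 0.335). Reads from 384 to 516 per library stood behind these values.

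vp5 (Zm00001d027936, chromosome 1, 17962828 to 17975699, plus strand), which encodes phytoene desaturase, had 8.11, 7.17 and 7.38 FPKM in mutant replicates 1, 2 and 3. In wild-type replicates 1, 2 and 3 it had 9.16, 7.38 and 11.7 FPKM. The mutant values were close together, and wild-type replicate 2 lay among them. Means were 7.55 ± 0.49 FPKM in mutant and 9.43 ± 2.2 FPKM in wild-type anthers (SD, n = 3 each). The log2 fold change of -0.27 (SE 0.19, 95% interval -0.71 to 0.17) missed the threshold (limma adjusted p = 0.386) and lay 0.068 below the median of all tested genes. It was -0.016 with median-of-ratios scaling (limma adjusted p = 0.966). The counted length of this gene model, 5630 bp, was the longest of the 6.

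Within libraries, the log2 ratio of vp5 to y1 does not depend on how libraries are scaled. It was -0.72, -0.77 and -0.78 in mutant libraries and -0.46, -0.62 and -0.31 in wild-type libraries, with no overlap. The difference of -0.29 (SE 0.091) gave an exact two-sided permutation p of 0.1, the smallest that 3 against 3 libraries allow, and an adjusted p of 0.25 over the 5 ratios tested. With this number of libraries, the exact permutation test cannot pass a threshold of 0.05.

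lcyE (Zm00001d011210, chromosome 8, 143020695 to 143027838, plus strand) encodes the cyclase that opens the lutein branch. Its gene model was among the most abundant of the anther, with rank 252 to 303 of 31470 genes by FPKM in mutant libraries and rank 332 to 359 in wild-type libraries. It had 342, 373 and 407 FPKM in mutant replicates 1, 2 and 3, against 309, 250 and 306 FPKM in wild-type replicates 1, 2 and 3. Every mutant library was above every wild-type library, with the nearest values at 342 and 309 FPKM. The means were 374 ± 32.5 FPKM in mutant and 289 ± 33.1 FPKM in wild-type anthers (SD, n = 3 each), a ratio of 1.30.

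The log2 fold change of lcyE was 0.37 (SE 0.18, 95% interval -0.037 to 0.79). It missed the threshold (limma adjusted p = 0.210), and the exact permutation p was 0.1, the smallest possible here. Relative to the median of all tested genes it was 0.57. With median-of-ratios scaling it was 0.65 (95% interval 0.17 to 1.14), which also missed the threshold after adjustment (limma adjusted p = 0.111). With 17695 to 30296 reads per library, counting error was 0.601% of the mutant value and 0.691% of the wild-type value, far under the spread of 8.68% and 11.5% between libraries. The gene model was counted over 4194 bp. The nearest listed genes, 19990 bp to the left and 18950 bp to the right, averaged 0.182 and 0.142 FPKM in mutant and 0.497 and 0.152 FPKM in wild-type anthers.

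Zm00001d048469 (chromosome 9, 156850438 to 156852802, plus strand), listed as a hydroxylase, was the 1 gene of the 6 that passed the test. It had 15.1, 15.8 and 11.3 FPKM in mutant replicates 1, 2 and 3. The wild-type replicates 1, 2 and 3 had 7.34, 4.78 and 6.86 FPKM. Mutant replicate 3, the lowest of its genotype, was still above the highest wild-type library. Means were 14.1 ± 2.43 FPKM in mutant and 6.33 ± 1.36 FPKM in wild-type anthers (SD, n = 3 each), a ratio of 2.23. In bulk anthers, more RNA per cell and more cells that carry the transcript cannot be told apart.

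Zm00001d048469 rose in the mutant by a log2 fold change of 1.05 (SE 0.21, 95% interval 0.57 to 1.53, limma adjusted p = 0.0312). As for lcyE, the exact permutation p was 0.1, the smallest possible here. Relative to the median of all tested genes the rise was 1.25, and 2.08% of tested genes had a higher fold change. The rise passed under median-of-ratios scaling (1.30, limma adjusted p = 0.0183), where 3.48% of tested genes rose, and in limma-voom on recovered reads (1.16, adjusted p = 0.0273). While the fold change stayed between 0.88 and 1.19 without 1 library, the call depended on which library was left out. It was lost without mutant replicate 1 (0.99, limma adjusted p = 0.116), mutant replicate 2 (0.96, adjusted p = 0.135), wild-type replicate 1 (1.15, adjusted p = 0.0590) or wild-type replicate 2 (0.88, adjusted p = 0.0637). It was kept without mutant replicate 3 (1.19, limma adjusted p = 0.0363) or wild-type replicate 3 (1.11, adjusted p = 0.0344). The share called over all tested genes was 6.65% with all libraries. It was 0.284%, 0.263%, 2.15% and 2.58% in the fits that lost the call, in the order given. Those that kept it called 4.42% and 7.23%. With no filter on low values the call of Zm00001d048469 was lost as well (limma adjusted p = 0.0644). The fold change was the same and the number of genes tested larger. The unadjusted limma p was larger too, at 0.00142 against 0.00098 with the filter. In the fit with no filter 0.928% of genes were called.

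**Figure D3:**
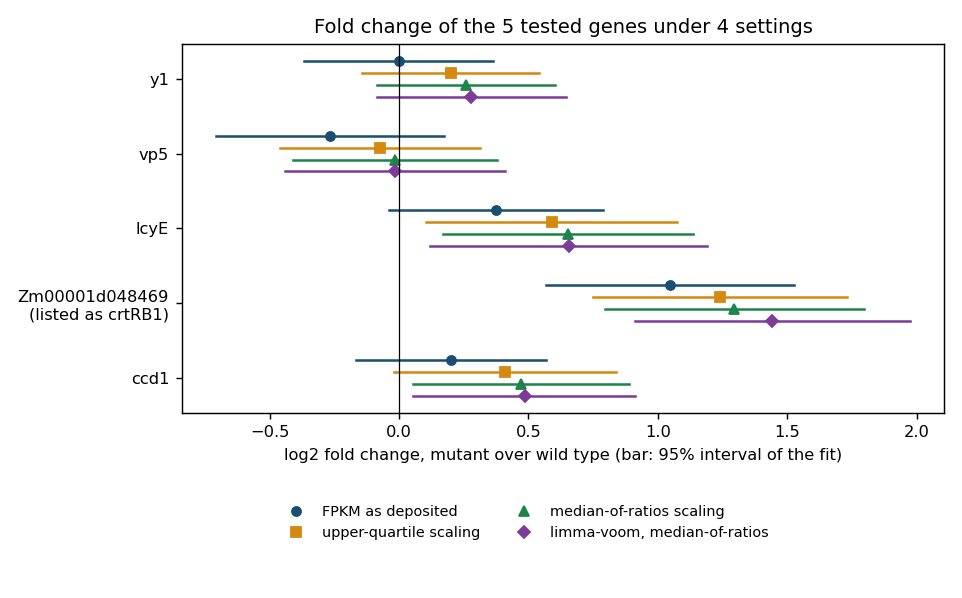
Log2 fold change, mutant over wild type, of the 5 tested genes with the 95% interval of the fit, for FPKM as deposited, upper-quartile scaling, median-of-ratios scaling and limma-voom on recovered reads with median-of-ratios scaling. Zm00001d048469 lies between 1.05 and 1.44 with every interval above 0, and y1 moves from -0.0013 to 0.28.

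The genes next to Zm00001d048469 had lower mean values in the mutant. The gene 2922 bp to its left, on the other strand, averaged 3.46 ± 0.541 FPKM in mutant and 5.84 ± 1.1 FPKM in wild-type anthers (SD, n = 3 each), a log2 fold change of -0.61 that missed the threshold (limma adjusted p = 0.0837). The gene 33202 bp to its right averaged 7.80 ± 1.57 FPKM in mutant and 13.3 ± 2.34 FPKM in wild-type anthers, a log2 fold change of -0.70 that missed it too (limma adjusted p = 0.0730). Zm00001d048469 and ccd1 both lie on chromosome 9, 1608152 bp apart with 84 listed genes between them. Of the 48 tested genes in that interval 3 passed the test, each of them lower in the mutant. Over all tested genes 6.65% were called and 4.75% fell. The median log2 fold change of the 48 was -0.28, beside -0.20 over all tested genes. Whether the interval differs from others was not tested.

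Set against lcyE of the same library, the log2 ratio of Zm00001d048469 was -4.50, -4.56 and -5.17 in mutant libraries and -5.39, -5.71 and -5.48 in wild-type libraries. The genotypes did not overlap, and mutant replicate 3 stood nearest to wild type. The difference was 0.79 (SE 0.23, exact permutation p = 0.1, adjusted p = 0.25 over the 5 ratios).

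ccd1 (Zm00001d048373, chromosome 9, 155236300 to 155242285, minus strand) encodes a dioxygenase that cleaves carotenoids outside the route to abscisic acid. It had 39.1, 35.3 and 36.3 FPKM in mutant replicates 1, 2 and 3, against 32.2, 36.0 and 28.2 FPKM in wild-type replicates 1, 2 and 3. Wild-type replicate 2 lay above mutant replicate 2, so the genotypes overlapped. The means were 36.9 ± 1.95 FPKM in mutant and 32.1 ± 3.92 FPKM in wild-type anthers (SD, n = 3 each). The log2 fold change of 0.20 (SE 0.16, 95% interval -0.17 to 0.57) missed the threshold (limma adjusted p = 0.433), and it was 0.40 above the median of all tested genes. With median-of-ratios scaling it was 0.47 (95% interval 0.053 to 0.89, limma adjusted p = 0.167), with no overlap between the genotypes. Some maize lines carry extra copies of ccd1 at the white cap locus, and reads of near-identical copies cannot be assigned with certainty.

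The log2 ratio of ccd1 to y1 was 1.55, 1.53 and 1.52 in mutant libraries and 1.35, 1.67 and 0.95 in wild-type libraries. The mutant values agreed closely with each other and fell inside the wild-type range. The difference of 0.21 (SE 0.21) gave an exact permutation p of 0.4 (adjusted p = 0.5 over the 5 ratios).

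vp14 (Zm00001d033222, chromosome 1, 255021507 to 255023321, minus strand) encodes the dioxygenase of the first step committed to abscisic acid. It was barely read in these anthers, with 7, 9 and 7 reads in mutant replicates 1, 2 and 3, against 5, 14 and 10 reads in wild-type replicates 1, 2 and 3. These correspond to 0.219, 0.282 and 0.217 FPKM in mutant libraries and 0.159, 0.458 and 0.312 FPKM in wild-type libraries. The mutant libraries lay inside the wild-type range. No library reached 1 FPKM, so vp14 was not among the tested genes.

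Over the 3 libraries of each genotype, vp14 had 23 reads in mutant and 29 in wild-type anthers, a depth-corrected ratio of 0.776 with a 95% exact counting interval of 0.429 to 1.39. The interval covers counting error only. With no filter on low values, the fold change of vp14 was -0.074 on the log2 scale (SE 0.093, limma adjusted p = 0.663), a scale that compresses values under 1 FPKM. A change within the counting interval was not detectable at this depth. Since that interval leaves out the spread between libraries, a larger change could be missed too. The log2 ratio of vp14 to y1 averaged -5.74 ± 0.27 in mutant and -5.49 ± 0.84 in wild-type libraries (SD, n = 3 each, exact permutation p = 0.8). That of vp14 to ccd1 averaged -7.28 ± 0.27 in mutant and -6.82 ± 0.74 in wild-type libraries (exact permutation p = 0.4, adjusted p = 0.5 over the 5 ratios). In every library ccd1 was thus far above vp14 in FPKM.

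**Figure D4:**
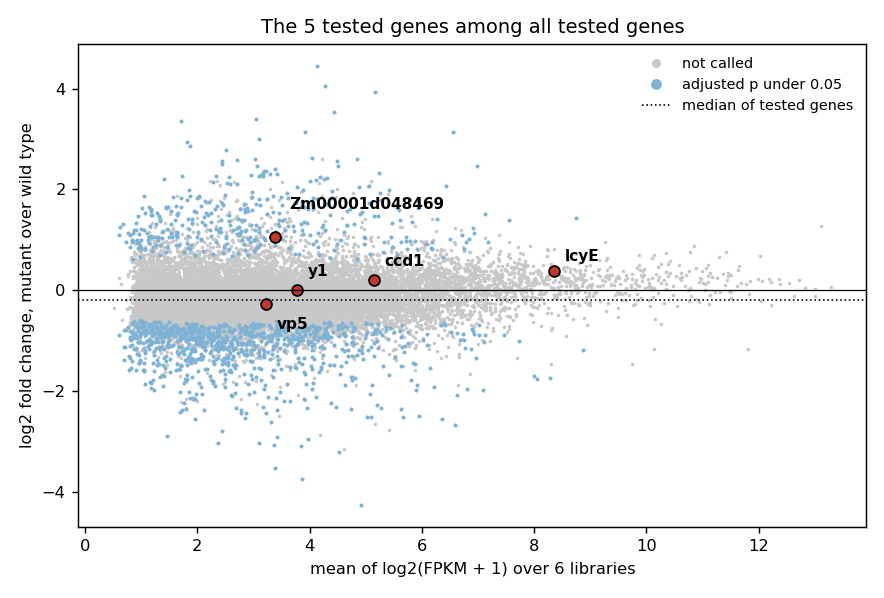
Log2 fold change against mean log2(FPKM + 1) for all 18984 tested genes, with called genes in blue and the 5 tested genes of the list in red. Zm00001d048469 lies at 1.05 among the called rises, while vp5, y1, ccd1 and lcyE lie between -0.27 and 0.37.

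No listed gene overlapped any of the 6 genes, but y1, vp5 and ccd1 have close neighbours. A gene 477 bp to the right of y1, on the same strand, averaged 38.8 ± 6.24 FPKM in mutant and 34.5 ± 3.82 FPKM in wild-type anthers (SD, n = 3 each), above y1 itself. The gene 1277 bp to the left of vp5, also on the plus strand, averaged 7.02 ± 0.606 FPKM in mutant and 8.53 ± 1.79 FPKM in wild-type anthers. The gene 1397 bp to the left of ccd1, on the same strand, fell to 0.808 ± 0.156 FPKM in mutant anthers, against 2.24 ± 0.420 FPKM in wild-type anthers (log2 fold change -0.84, limma adjusted p = 0.0304). The part of these neighbours in the values of y1, vp5 and ccd1 was not tested.

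Across the 6 libraries, the tested gene whose log2(FPKM + 1) followed y1 most closely was Zm00001d020583 on chromosome 7 (Pearson's r = 0.994). It had 12.7, 9.29 and 9.88 FPKM in mutant libraries and 9.80, 5.71 and 20.6 FPKM in wild-type libraries, with the highest value in wild-type replicate 3, as for y1. For vp14 it was Zm00001d048259 on chromosome 9 (r = 0.967), at 2.17, 2.58 and 1.67 FPKM in mutant libraries and 1.11, 4.34 and 2.56 FPKM in wild-type libraries. The pattern of vp14 rests on 5 to 14 reads per library. These are the highest of 18983 and 18984 correlations over only 6 libraries, and the libraries share their depth scaling, so they are descriptions only. Correlations over 0.95 numbered 53 for y1 and 5 for vp14, with the named genes included. Other genes of the pathway, such as further phytoene synthases, zeaxanthin epoxidases and aldehyde oxidases, were not used here because no annotation given with the files pairs their names with identifiers.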

How the data were processed

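Each of 6 files holds 1 library of mature anthers, 3 from the double mutant and 3 from wild type. Per the file headers, a file gives each gene's position, strand and span beside its value. The authors deposited FPKM, 1 per gene. Named without roles in the submitters' processing notes are Bowtie2 2.2.3, HISAT2 2.1.0, HTSeq 0.6.0 and the build B73 RefGen_v4. The sources used here give neither strand setting nor filters. Whole reads were recovered as value times counted length times library total, within 0.0001 reads plus 3e-09 per read, for 31465 of 31470 genes, against 2.95% of 2000 genes after perturbation. Whether a read is a single read or a pair is not shown. A counted length can come out divided by a factor shared with all reads of the gene.

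The comparison of genotypes used limma 3.58.1 (R 4.3.3, two-sided, intensity trend, pseudocount 1). The script was tested on simulated reads. Exact permutation tests used scipy 1.17.1. All 6 members are named, plus, for y1 and vp14, the tested gene with the highest correlation. Members, lists and filter were chosen with earlier results of these data known. Alternatives were 3 other scalings, a pseudocount of 0.1, no filter or FPKM 5, no trend, limma-voom on recovered reads, a replicate block and each library left out. No sequence table was used.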

Additional observations from a re-analysis of the deposited data

How the results depend on the processing

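The log2 fold changes of vp5, lcyE and ccd1 kept their sign and stayed past no threshold in the 16 alternatives run for each, with limma adjusted p from 0.230 to 0.972, 0.111 to 0.446 and 0.166 to 0.674. Without 1 library they ran from -0.41 to -0.11 for vp5, 0.28 to 0.44 for lcyE and 0.11 to 0.28 for ccd1. That of y1 (-0.0013) turned to 0.26 with median-of-ratios scaling, 0.20 with upper-quartile scaling and 0.28 in limma-voom with median-of-ratios scaling, since these shift all genes, and ran from -0.081 to 0.086 without 1 library. The call of Zm00001d048469 was lost at an unchanged 1.05 with no filter (limma adjusted p = 0.0644) and with the replicate block (limma adjusted p = 0.0627). Deviations of same-numbered libraries from their group means correlated at 0.012, -0.384 and -0.328, so the numbers give no sign of pairing. Without 1 library its fold change ran from 0.88 to 1.19. The number of the 6 genes called, counted after seeing the data, was then 0 with no filter and with the replicate block, and 0 to 1 without 1 library. vp14 moved from -0.074 to -0.21 with a pseudocount of 0.1 and to -0.25 in limma-voom, where low values are compressed less, was 0.031 in limma-voom with median-of-ratios scaling, and ran from -0.16 to 0.0066 without 1 library. Over all tested genes, 1262 calls became 292 with no filter, 748 with FPKM 5, 715 with the replicate block and 50 to 1373 without 1 library. With median-of-ratios scaling 661 rose and 410 fell, beside 361 and 901 as deposited, a share of rises moved by scaling. Without 1 library the difference in log2 ratio ran from -0.37 to -0.22 for vp5 over y1, 0.67 to 1.0 for Zm00001d048469 over lcyE, 0.022 to 0.38 for ccd1 over y1, -0.66 to 0.18 for vp14 over y1 and -0.88 to -0.20 for vp14 over ccd1. Depth limits vp14 most, with 5 to 14 reads per library, and counting error also came to 4.70% for y1 in mutant libraries, beside a measured spread of 4.52%.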

Other observations

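For each of the 6 genes, the coefficient of variation between libraries was lower in mutant than in wild-type anthers. It was 4.52% in mutant and 12.6% in wild type for y1, 6.50% and 23.3% for vp5, and 5.29% and 12.2% for ccd1, in the same order. The values lay closer together for lcyE (8.68% and 11.5%) and Zm00001d048469 (17.3% and 21.6%). Counting error alone gives 4.70% in mutant and 4.73% in wild type for y1, 3.65% and 3.30% for vp5, and 2.71% and 2.94% for ccd1, so the mutant spread of y1 was no larger than counting error. Over all tested genes, 60.9% had the higher value in wild type, with medians of 17.1% in mutant and 21.2% in wild type. This was noticed after seeing the data and was not tested. For vp14, counting error alone gives 36.1% in mutant and 32.2% in wild type, beside a measured 15.5% and 48.2%.

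Without lcyE, the summed FPKM of the other 5 genes was 75.9, 70.9 and 67.9 in mutant libraries and 61.5, 59.9 and 61.6 in wild-type libraries. Every mutant library was higher than every wild-type library, a pattern seen in 7.27% of tested genes taken singly. The sum was not among the planned results and was not tested. Within it, the means of Zm00001d048469 (14.1 FPKM in mutant and 6.33 FPKM in wild type) and ccd1 (36.9 and 32.1 FPKM) were higher in mutant anthers. Those of y1, vp5 and vp14 were not.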
